A study of Mus musculus with 8 samples.

Results

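Somitic mesoderm comprised 853 of the 28723 cells retained from chimeric mouse embryos, of which 317 of 8566 were Eomes-KO cells and 536 of 20157 were WT host cells. Members were all cells that carry the somitic mesoderm label in the authors' combined annotation, which has 42 labels. Chimeras are embryos in which injected embryonic stem cells (ESC) develop alongside the cells of a host blastocyst. Male ESC marked with tdTomato, a red fluorescent protein, were made Eomes null by a CRISPR deletion, and 4 independent clones were each injected into C57BL/6 WT blastocysts. Embryos were collected at about E8.5, pooled by clone, with approximately 4 embryos to a tube, and sorted into tdTomato+ cells, which are Eomes-KO, and tdTomato− cells, which are WT host. Each genotype gave 4 libraries of droplet-based single-cell RNA sequencing. Each Eomes-KO library therefore stands for 1 clone, and no library held injected WT ESC, so loss of Eomes and ESC origin cannot be told apart.

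Somitic mesoderm is the tissue that is cut into somites, the paired blocks from which the vertebrae, the skeletal muscle of the trunk and the dermis of the back are formed. Its precursors leave the primitive streak, and later come from neuromesodermal progenitors (NMP) of the tail bud, as presomitic mesoderm. This unsegmented tissue buds off somites at its anterior end with the rhythm of the segmentation clock. Each somite then separates into a dermomyotome, the dorsal epithelium that gives muscle and dermis, and a sclerotome that gives the axial skeleton. Eomes is a T-box transcription factor of the early primitive streak, where it is known for its role in anterior mesoderm and definitive endoderm. The usual markers are Tbx6, a T-box factor of presomitic mesoderm, Dll1, a Notch ligand, Mesp2, which marks the next somite boundary, and Tcf15, a transcription factor of formed somites. The cell table used here holds labels and quality measures but no gene values, so these 4 markers were not checked and expression was not analysed here.

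The Eomes-KO libraries held 602 to 3465 cells and the WT host libraries 2414 to 8133, and each library is named here by its genotype and its total number of cells. No cell barcode was shared between somitic mesoderm cells, although 80 barcodes occurred in more than 1 library in the whole series. Whether barcodes of somitic mesoderm cells recurred in cells of other types was not checked. Median UMIs (unique molecular identifiers, the counted transcripts) per somitic mesoderm cell were 33838, 19846, 17507 and 8532 in the Eomes-KO libraries of 602, 1153, 3346 and 3465 cells, against 7302, 9480, 10158 and 4784 in the WT host libraries of 2414, 3791, 5819 and 8133 cells. In 3 of the 4 Eomes-KO libraries the median was above that of every WT host library. The names of the libraries in the table do not show which pool they came from, so tdTomato+ and tdTomato− libraries of the same embryos could not be paired. The label itself rests on transfer from a reference atlas of mouse gastrulation, in which each cell takes the most frequent label among its 15 nearest atlas cells. All 853 cells also carried the somitic mesoderm label of the first atlas annotation (37 labels in the table), and no cell with that first label was placed elsewhere. At least 8 of the 15 neighbours carried this label for 94.0% of the Eomes-KO cells against 95.5% of the WT host cells, and all 15 did for 70 of 317 Eomes-KO cells (22.1%) and 95 of 536 WT host cells (17.7%).

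Eomes-KO cells formed somitic mesoderm in each of the 4 libraries, at a share that was not distinguishable from that of WT host cells. The Eomes-KO libraries of 602, 1153, 3346 and 3465 cells held 32, 47, 185 and 53 somitic mesoderm cells, which were 5.32%, 4.09%, 5.53% and 1.53% of their epiblast-derived cells. The WT host libraries of 2414, 3791, 5819 and 8133 cells held 60, 147, 153 and 176, which were 2.51%, 3.91%, 2.97% and 2.21%. The Eomes-KO libraries thus held both the highest shares and the lowest. The means were 4.12% ± 1.84 in Eomes-KO against 2.90% ± 0.745 in WT host cells (SD, n = 4 libraries each), with a log2 fold change of 0.49 (SE 0.41, adjusted p = 0.29, edgeR's quasi-likelihood test with Benjamini-Hochberg adjustment). Of the 33 types tested in this way 69.7% passed the threshold of an adjusted p below 0.05, and somitic mesoderm was not among them. The fold change compares shares, which rise in the types that remain when other types are lost. It was −0.56 (adjusted p = 0.41) with DESeq2. Over all types, the median change of the log2 fold change from edgeR to DESeq2 was −0.91.

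Somitic mesoderm was also set against NMP, which supply it with precursors, and against paraxial mesoderm, a separate label of the combined annotation. For every 100 NMP there were 152, 95.9, 97.9 and 63.9 somitic mesoderm cells in the Eomes-KO libraries, against 62.5, 71.0, 137 and 82.2 in the WT host libraries in the order above. The means, 103 ± 36.7 in Eomes-KO against 88.1 ± 33.3 in WT host cells, overlapped (two-sided exact permutation test, p = 0.54). Paraxial mesoderm counted 1, 1, 4 and 5 cells in the Eomes-KO libraries, against 135, 202, 333 and 404 in WT host libraries. Somitic mesoderm cells therefore outnumbered paraxial mesoderm cells in all 4 Eomes-KO libraries and in no WT host library. The proportion to caudal mesoderm, the combined type of the tail end, ran the other way. For every 100 caudal mesoderm cells there were 123, 61.0, 79.1 and 47.3 somitic mesoderm cells in the Eomes-KO libraries, against 500, 525, 170 and 267 in the WT host ones, again without overlap. The ratios to paraxial and to caudal mesoderm were not tested, but the shares of both types among epiblast-derived cells were. Their log2 fold changes were −5.42 (adjusted p = 4.2e-08) for paraxial and 2.45 (adjusted p = 0.00013) for caudal mesoderm (edgeR's quasi-likelihood test). That of somitic mesoderm was 0.49, and 69.7% of the 33 types passed.

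**Figure D1:**
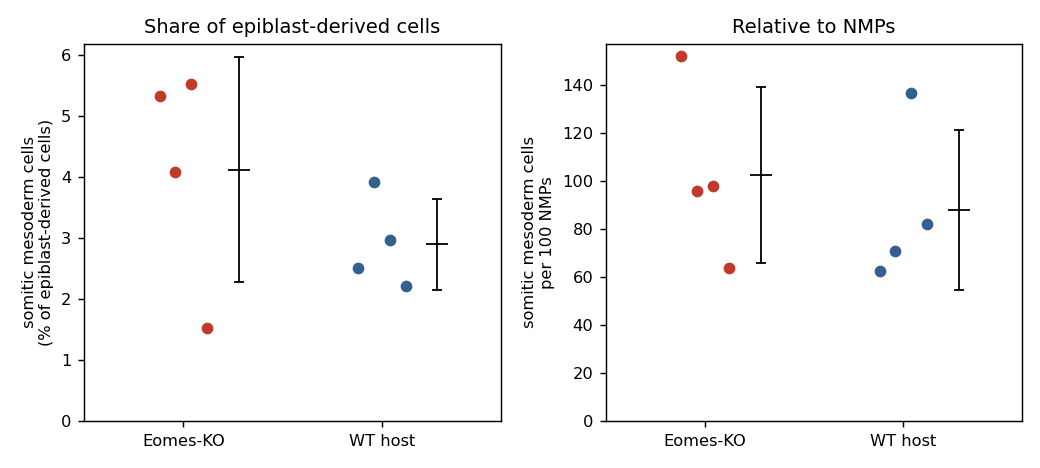
Somitic mesoderm cells as a percentage of epiblast-derived cells (left) and per 100 NMP (right). Each point is 1 library, and the bars give the mean and SD of 4 libraries. The points of Eomes-KO and WT host libraries overlap in both panels, and the Eomes-KO library of 3465 cells has the lowest share, 1.53%.

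The extended annotation of the atlas, with 77 labels in the table, divided these cells mainly into 3 groups. Of the 853 cells, 395 carried the extended label intermediate mesoderm (46.3%), 275 somitic mesoderm (32.2%) and 129 presomitic mesoderm (15.1%). Caudal mesoderm (20 cells), dermomyotome (17 cells) and posterior somitic tissues (13 cells) made up most of the rest, and NMPs/mesoderm-biased and paraxial mesoderm had 2 cells each. Intermediate mesoderm, from which the kidneys form, lies beside the somites. The first and the extended annotation thus gave different names to 395 of the 853 cells by this label alone.

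Of the 3 main extended labels, none differed in its share of somitic mesoderm between the genotypes by more than the spread between libraries. Presomitic mesoderm, the unsegmented precursor tissue, made up 16.8% ± 2.85 of somitic mesoderm in Eomes-KO against 13.1% ± 5.82 in WT host cells (SD, n = 4 libraries each), with 53 and 76 cells. The extended somitic mesoderm label made up 35.3% ± 13.6 in Eomes-KO (123 cells) against 29.4% ± 11.2 in WT host cells (152 cells). Intermediate mesoderm made up 43.9% ± 15.9 in Eomes-KO (128 cells) against 50.4% ± 13.5 in WT host cells (267 cells). Libraries of 1 genotype differed from each other more than the genotypes did. The intermediate mesoderm label took 31.2%, 44.7%, 33.5% and 66.0% of the somitic mesoderm of the Eomes-KO libraries of 602, 1153, 3346 and 3465 cells, and 55.0%, 32.0%, 64.1% and 50.6% of that of the WT host libraries of 2414, 3791, 5819 and 8133 cells. In the fit on cell numbers within the type, the log2 fold changes were 0.27 (SE 0.33, adjusted p = 0.67) for presomitic mesoderm, 0.34 (SE 0.38, adjusted p = 0.62) for somitic mesoderm and −0.23 (SE 0.30, adjusted p = 0.69) for intermediate mesoderm (edgeR's quasi-likelihood test). Caudal mesoderm, the tissue at the tail end, had 10 cells in each genotype (log2 fold change 0.72, SE 0.78, adjusted p = 0.62).

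**Figure D2:**
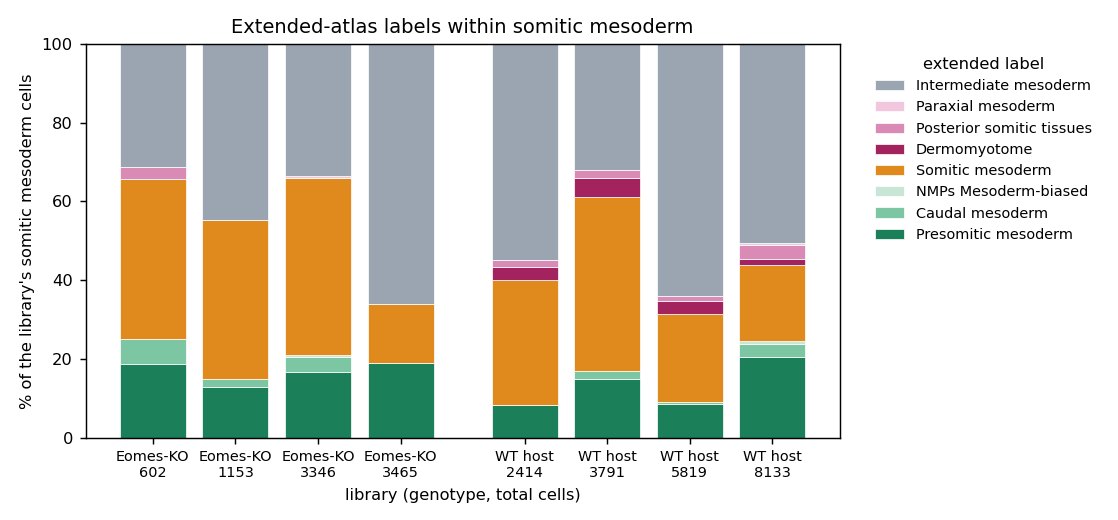
Extended-atlas labels of the somitic mesoderm cells of each library, in percent of those cells, with Eomes-KO libraries on the left and WT host libraries on the right. Dermomyotome (dark red) is present in the 4 WT host libraries, at 1.70% to 4.76%, and in no Eomes-KO library.

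Dermomyotome was the single extended label of 6 tested that passed the threshold within somitic mesoderm, where 32.8% of the 58 pairs of a type and a label did so over the whole series. No Eomes-KO cell of somitic mesoderm carried it, against 2 of 60, 7 of 147, 5 of 153 and 3 of 176 cells in the WT host libraries of 2414, 3791, 5819 and 8133 cells. In percent this was 0 in each Eomes-KO library and 3.33, 4.76, 3.27 and 1.70 in the WT host libraries, so the groups did not overlap. With a limit of 3 cells over all Eomes-KO libraries, the share was 3.35-fold lower in Eomes-KO cells (adjusted p = 0.022, edgeR's quasi-likelihood test). This fold takes the WT host share as counted, without its error, and is not a lower confidence bound. The label met the filter of at least 10 cells through its 17 WT host cells alone. Without that filter the adjusted p was 0.031 (edgeR's quasi-likelihood test). The 95% exact binomial interval of 0 of 317 cells reached 1.16%, and that of the WT host share over all libraries, 3.17%, ran from 1.86% to 5.03% (counting error only). By the floor of 3 cells, 0 of 317 allows a share of up to 0.946%. Of single Eomes-KO libraries, the one of 3346 cells alone had such a 3-cell limit (1.62%) below the lowest WT host share. The limits of the other 3 were 5.66% to 9.38%, above every WT host library.

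The dermomyotome call rests on 17 cells. It was lost when the Eomes-KO library of 3346 cells (adjusted p = 0.066), that of 2414 WT host cells (adjusted p = 0.068) or that of 5819 WT host cells (adjusted p = 0.059) was left out of edgeR's quasi-likelihood test. An exact permutation test of the shares gave p = 0.029, the smallest that 4 against 4 libraries can give, and 0.17 after adjustment over the 6 labels. A single label at that p cannot pass after this adjustment, so the test could not have kept the call. The 17 cells had a median doublet score of 0.26, against 0.20, 0.19 and 0.15 for the intermediate, somitic and presomitic mesoderm labels, and 7 of them were below 0.25, too few for a test. Whether doublets had a part in the result was not tested. Outside somitic mesoderm the dermomyotome label occurred in paraxial mesoderm, on 3 of its 11 Eomes-KO cells and 148 of its 1074 WT host cells. Within paraxial mesoderm the Eomes-KO share was thus not the lower one, though it rests on 3 cells.

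Posterior somitic tissues showed a similar split without passing the threshold. This label was found in 1 of the 317 cells of Eomes-KO libraries, against 12 of 536 WT host cells, so that the WT host share was 7.10 times the Eomes-KO share, with an interval of 1.05 to 303 from counting error alone (adjusted p = 0.098, edgeR's quasi-likelihood test). The 1 Eomes-KO cell came from the library of 602 cells, and without that library the adjusted p was 0.030. The 12 WT host cells were by themselves enough to meet the filter of at least 10 cells. Over the series the extended label posterior somitic tissues was on 1 of 8566 Eomes-KO cells and 86 of 20157 WT host cells. Most of these WT host cells (72) were among the 1074 of paraxial mesoderm, a type with 11 Eomes-KO cells.

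The same labels were set against all epiblast-derived cells of each sorted library. This gives their share among the cells of that genotype and not how somitic mesoderm is made up. Dermomyotome-labelled somitic mesoderm was again the 1 label of 6 that passed, where 68.1% of the 116 pairs tested did so (adjusted p = 0.0085, edgeR's quasi-likelihood test). At a limit of 3 Eomes-KO cells, and with the WT host share taken as counted, it was 2.52-fold lower in Eomes-KO cells. Here too WT host cells alone met the filter of at least 10 cells, and without it the adjusted p was 0.011 (same test). The log2 fold changes of the larger labels were 0.75 (SE 0.48, adjusted p = 0.16) for presomitic mesoderm, 0.82 (SE 0.49, adjusted p = 0.13) for somitic mesoderm and 0.15 (SE 0.44, adjusted p = 0.78) for intermediate mesoderm. That of caudal mesoderm was 1.24 (SE 0.86, adjusted p = 0.19). Single libraries decided some of these. Without the Eomes-KO library of 3465 cells, the somitic mesoderm label reached 1.24 (adjusted p = 0.025) and the caudal mesoderm label 1.89 (adjusted p = 0.045), and with the 3791 WT host cells left out the somitic mesoderm label reached 1.36 (adjusted p = 0.047). Among cells with at least 10000 UMIs, the presomitic mesoderm label reached 2.13 (adjusted p = 0.014). Before this cut, median UMIs of presomitic-labelled cells were 28675.5, 18889, 15173 and 6408.5 in the Eomes-KO libraries of 602, 1153, 3346 and 3465 cells. In the WT host libraries of 2414, 3791, 5819 and 8133 cells they were 9348, 8007, 8418 and 4145, all below the cut. What part the cut had in this value was not tested.

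The extended labels were also followed in the other direction, by asking which combined type their cells were assigned to, a comparison chosen after the data had been seen. Cells with the extended label presomitic mesoderm were assigned to somitic mesoderm in 13.0%, 5.77%, 10.5% and 3.09% of cases in the Eomes-KO libraries of 602, 1153, 3346 and 3465 cells, against 18.5%, 31.4%, 22.0% and 19.8% in the WT host libraries of 2414, 3791, 5819 and 8133 cells. The mean was 8.11% ± 4.51 in Eomes-KO against 22.9% ± 5.84 in WT host cells (SD, n = 4 libraries each). Most of the others were assigned to intermediate mesoderm (576 of 768 in Eomes-KO, 200 of 338 in WT host cells) or to lateral plate mesoderm (139 in Eomes-KO, 61 in WT host cells). Cells with the extended label intermediate mesoderm were assigned to somitic mesoderm in 15.3% ± 4.55 of cases in Eomes-KO against 47.7% ± 13.2 in WT host cells, with a range of 9.46% to 19.2% in Eomes-KO and 33.3% to 65.3% in WT host libraries. The groups did not overlap for either label.

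By contrast, the extended somitic mesoderm label went to combined somitic mesoderm in nearly all cells of both genotypes, 89.4% ± 3.06 in Eomes-KO against 89.8% ± 4.82 in WT host cells (exact permutation p = 0.86). The difference for each of the other 2 labels had an exact permutation p of 0.029, the smallest possible, which was 0.072 after adjustment over the 38 pairs of an extended label and a combined type tested in this way. Of these 38 pairs, 39.5% had a p below 0.05. Neither difference passed after adjustment, though a single pair at the smallest p could not have done so. In absolute number the presomitic mesoderm label was on 768 Eomes-KO and 338 WT host cells of the whole series, so that somitic mesoderm as defined here held 6.90% of the presomitic-labelled Eomes-KO cells and 22.5% of the WT host cells. Per epiblast-derived cells, presomitic-labelled cells had a log2 fold change of 0.75 in somitic mesoderm (adjusted p = 0.16, edgeR's quasi-likelihood test). It was 2.81 in combined intermediate mesoderm (adjusted p = 2.5e-07) and 2.28 in lateral plate mesoderm (adjusted p = 2.1e-05, same test), where 68.1% of 116 pairs passed. The lower percentage in Eomes-KO thus came with a larger share of such cells in those types.

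**Figure D3:**
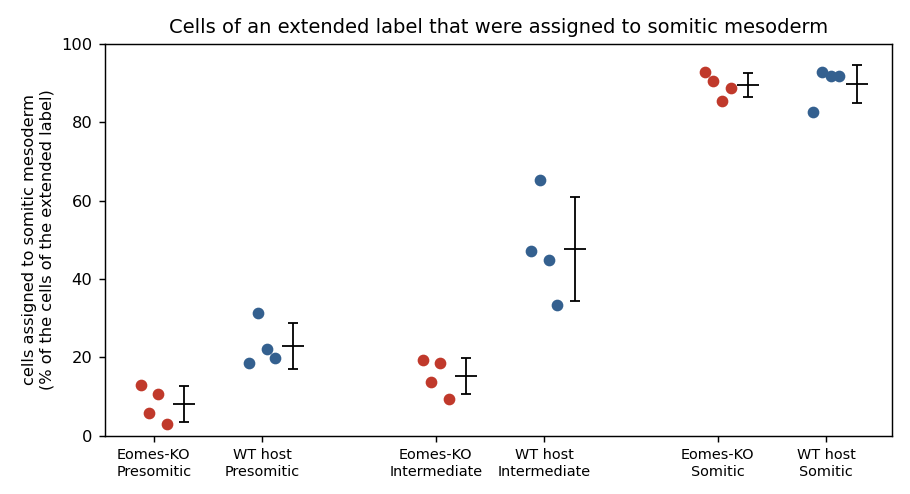
Percentage of the cells of an extended label that were assigned to somitic mesoderm in the combined annotation. Each point is 1 library, and the bars give the mean and SD of 4 libraries. Eomes-KO lies below WT host for the presomitic and intermediate labels without overlap, and both genotypes lie between 82.6% and 92.9% for the somitic label.

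Cells were next compared by the stage of the atlas embryos they matched, from E7.5 to E8.5. Eomes-KO somitic mesoderm had 90 cells at E8.0, 153 at E8.25 and 69 at E8.5, and WT host somitic mesoderm had 223, 230 and 79, with 5 Eomes-KO and 4 WT host cells at earlier stages. None of these 3 stages passed the threshold, where 6.12% of the 49 pairs of a type and a stage did so. The log2 fold changes were −0.42 at E8.0 (SE 0.40, adjusted p = 0.54), 0.11 at E8.25 (SE 0.31, adjusted p = 0.90) and 0.46 at E8.5 (SE 0.52, adjusted p = 0.61, edgeR's quasi-likelihood test). None of the 3 had an unadjusted p below 0.05, by this test or by exact permutation of the shares.

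The mapped stage differed between the extended labels. Presomitic mesoderm cells were all at E8.25 or E8.5, with 37 and 16 cells in Eomes-KO and 48 and 28 in WT host. The extended somitic mesoderm cells were at the same stages but for 9 WT host cells, with 72 and 51 cells in Eomes-KO and 100 and 43 in WT host. Intermediate mesoderm cells were mostly at E8.0, with 89 of 128 in Eomes-KO (69.5%) and 214 of 267 in WT host (80.1%). All 17 dermomyotome cells were at E8.25. Within a label, the mean stages of the genotypes lay within the spread of the libraries. They were 8.33 ± 0.070 embryonic days in Eomes-KO and 8.33 ± 0.027 in WT host for presomitic mesoderm (exact permutation p = 0.91), and 8.33 ± 0.035 in Eomes-KO and 8.29 ± 0.059 in WT host for the extended somitic mesoderm label (exact permutation p = 0.29). For intermediate mesoderm they were 8.03 ± 0.047 in Eomes-KO and 8.05 ± 0.032 in WT host (exact permutation p = 0.49). Stage and label were read from the same nearest atlas cells and are not independent.

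The mean mapped stage of somitic mesoderm was 8.20 ± 0.057 embryonic days in Eomes-KO against 8.17 ± 0.059 in WT host cells (exact permutation p = 0.54). Set against the other epiblast-derived cells of the same library, it stood at 0.072, 0.056, 0.059 and −0.0087 days in the Eomes-KO libraries of 602, 1153, 3346 and 3465 cells, against −0.057, −0.059, −0.067 and −0.029 days in the WT host libraries of 2414, 3791, 5819 and 8133 cells. All 4 Eomes-KO libraries lay above all 4 WT host libraries, with means of 0.045 ± 0.036 days in Eomes-KO and −0.053 ± 0.017 days in WT host libraries. The difference of 0.098 days had an exact permutation p of 0.029, the smallest possible, which was 0.21 after adjustment over the 22 measures tested on these cells. A single measure at that p could not pass after this adjustment. Of the 13 types with at least 5 cells in every library, 15.4% had a p below 0.05 in this comparison, namely allantois and somitic mesoderm. The relative stage was higher in Eomes-KO in 11 of the 13 types, and the other cells that serve as the comparison are a different mixture of types in each genotype.

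**Figure D4:**
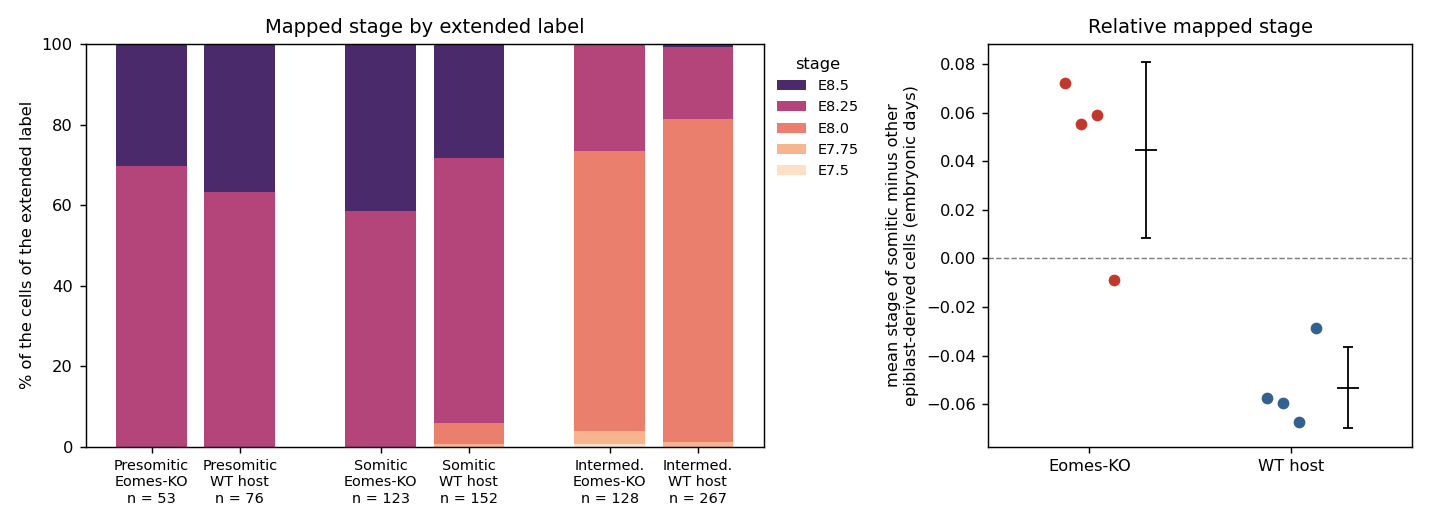
Left, mapped atlas stage of somitic mesoderm cells by extended label and genotype, in percent of the n cells given under each bar. Right, mean mapped stage of somitic mesoderm minus that of the other epiblast-derived cells of the library, in embryonic days, with 1 point per library and bars for the mean and SD of 4 libraries. Intermediate-labelled cells are mostly at E8.0 in both genotypes, and 3 of 4 Eomes-KO libraries but no WT host library lie above 0.

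The share of cells on the presomitic side, which adds caudal mesoderm and mesoderm-biased NMP to presomitic mesoderm, was 25.0%, 14.9%, 21.1% and 18.9% in the Eomes-KO libraries of 602, 1153, 3346 and 3465 cells. It was 8.33%, 17.0%, 9.15% and 24.4% in the WT host libraries of 2414, 3791, 5819 and 8133 cells. The highest value was in an Eomes-KO library and the lowest in a WT host library, the ranges overlapped, and the means of 20.0% ± 4.22 in Eomes-KO against 14.7% ± 7.56 in WT host cells were not distinguishable (exact permutation p = 0.26, adjusted p = 0.58).

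The cells named intermediate mesoderm in the extended annotation were compared with the presomitic- and somitic-labelled cells, the other labels being too rare for values in each library. Within each library, their mean mitochondrial percent was higher than that of presomitic-labelled cells, at 1.96% against 1.49% over the 8 libraries, with a difference of 0.466 ± 0.083 percentage points and the same sign in 8 of 8. The difference from cells of the extended somitic label was 0.402 ± 0.199 points, again in 8 of 8. Both differences were alike in the genotypes, with 0.466 and 0.401 points in Eomes-KO libraries against 0.466 and 0.403 points in WT host libraries. Rarer labels were not all below them. Over all libraries the median was 1.88% for intermediate-labelled cells, 1.89% for posterior somitic tissues, 1.72% for dermomyotome and 1.30% for caudal mesoderm. The authors left mitochondrial genes out of the genes used for mapping.

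Depth did not separate these labels in the same way. Intermediate-labelled cells had more UMIs on average than presomitic-labelled cells in 7 of 8 libraries, but more than somitic-labelled cells in 4 of 8. The label scores, which give the part of the 15 atlas neighbours with that label, went opposite ways in the annotations. The first-atlas somitic score averaged 0.671 in intermediate-labelled cells, against 0.857 in presomitic-labelled and 0.856 in somitic-labelled cells, and was lower in 8 of 8 libraries. The median of this score was also low in the rarer labels, at 0.6 for caudal mesoderm and dermomyotome and 0.667 for posterior somitic tissues, against 0.667 for intermediate-labelled cells. The extended-atlas score was 0.862 in intermediate-labelled cells, against 0.582 and 0.597 in presomitic- and somitic-labelled cells, and was higher in 8 of 8. These are descriptions with no test, since the cells were grouped by labels that come from the same mapping as the scores.

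**Figure D5:**
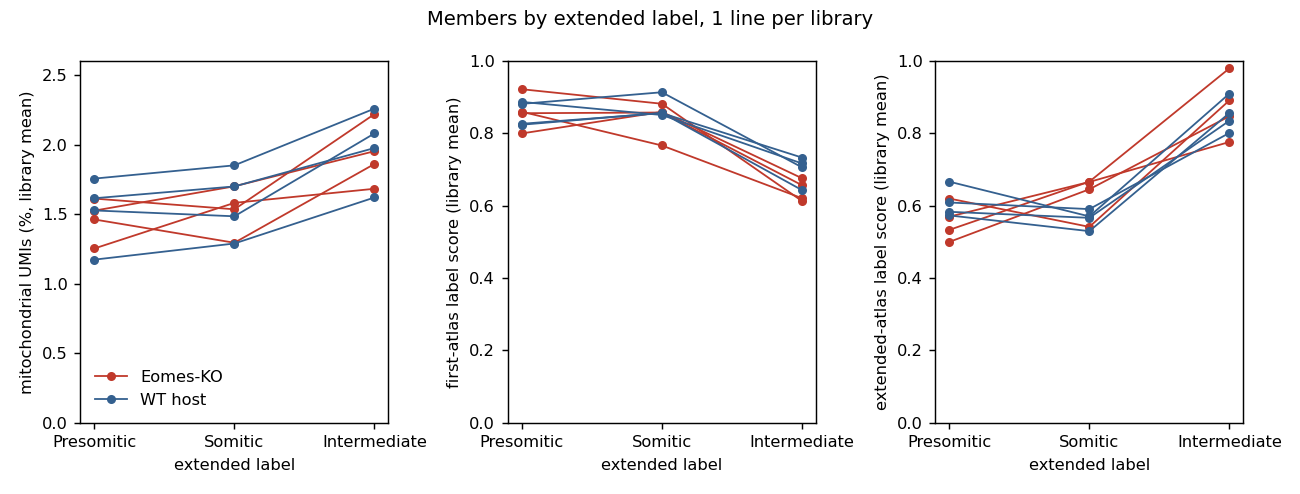
Library means of the mitochondrial percent of UMIs, the first-atlas label score and the extended-atlas label score for somitic mesoderm cells by extended label, with 1 line per library coloured by genotype. In each of the 8 libraries the intermediate-labelled cells have, of the 3 labels drawn, the highest mitochondrial percent, the lowest first-atlas score and the highest extended-atlas score.

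Of the quality measures and scores of somitic mesoderm as a whole, none passed after adjustment. A single measure at the smallest possible p of 0.029 could not pass after adjustment over the 22 measures, so the absence of a call says little. The ribosomal percent, the share of UMIs from ribosomal protein genes, had library medians of 27.4%, 27.7%, 28.0% and 27.1% in the Eomes-KO libraries of 602, 1153, 3346 and 3465 cells, against 26.4%, 26.8%, 25.4% and 25.2% in the WT host libraries of 2414, 3791, 5819 and 8133 cells. The groups did not overlap, with means of 27.6% ± 0.366 in Eomes-KO against 26.0% ± 0.768 in WT host cells (exact permutation p = 0.029, adjusted p = 0.21). This measure had a p below 0.05 in 15.4% of the 13 types and was higher in Eomes-KO in 13 of 13. Relative to the other epiblast-derived cells of the library it overlapped, with 1.01 ± 0.637 percentage points in Eomes-KO against 0.101 ± 0.232 in WT host cells (exact permutation p = 0.086, adjusted p = 0.27). Median UMIs relative to the other epiblast-derived cells of the library were 1.02 ± 0.039 in Eomes-KO against 0.906 ± 0.035 in WT host cells, without overlap (exact permutation p = 0.029, adjusted p = 0.21), where 38.5% of the 13 types had a p below 0.05. Median UMIs themselves overlapped (exact permutation p = 0.086, adjusted p = 0.27). Mitochondrial percent was 1.64% ± 0.130 in Eomes-KO against 1.71% ± 0.307 in WT host cells (exact permutation p = 0.69). Relative to the other cells it was 0.020 ± 0.211 points in Eomes-KO against 0.031 ± 0.155 in WT host cells. Genes detected per cell followed UMIs, with 4185 ± 1120 in Eomes-KO against 2647 ± 514 in WT host cells (exact permutation p = 0.086, adjusted p = 0.27) and a ratio to the other cells of 1.002 ± 0.041 in Eomes-KO against 0.977 ± 0.021 in WT host cells (exact permutation p = 0.34). The doublet score was 0.225 ± 0.075 in Eomes-KO against 0.194 ± 0.011 in WT host cells (exact permutation p = 0.51), and relative to the other cells −0.0075 ± 0.033 in Eomes-KO against 0.016 ± 0.005 in WT host cells (exact permutation p = 0.34). What part depth had in the labels of the 2 genotypes was not tested beyond the alternatives on UMIs.

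The label scores overlapped between the genotypes. The mean first-atlas score was 0.756 ± 0.046 in Eomes-KO against 0.768 ± 0.043 in WT host cells (exact permutation p = 0.71), the extended-atlas score 0.726 ± 0.046 in Eomes-KO against 0.717 ± 0.057 in WT host cells (exact permutation p = 0.77), and the stage score 0.632 ± 0.014 in Eomes-KO against 0.646 ± 0.003 in WT host cells (exact permutation p = 0.14). Relative to the other epiblast-derived cells of the library, the stage score went the other way, with 0.058 ± 0.012 in Eomes-KO against 0.018 ± 0.034 in WT host cells (exact permutation p = 0.057, adjusted p = 0.27). On that scale the first-atlas score was −0.079 ± 0.043 in Eomes-KO against −0.102 ± 0.036 in WT host cells (exact permutation p = 0.31), and the extended-atlas score −0.088 ± 0.050 in Eomes-KO against −0.076 ± 0.053 in WT host cells (exact permutation p = 0.77). The 853 cells had 629 distinct closest atlas cells, with at most 6 cells to an atlas cell. Eomes-KO cells matched 244 of these and WT host cells 445, and 60 were shared, which is 24.6% of those matched by Eomes-KO and 13.5% of those matched by WT host cells. The overlap between libraries of 1 genotype was not computed. These shares therefore cannot tell whether the genotypes matched different atlas cells.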

How the data were processed

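The authors sequenced tdTomato+ and tdTomato− cells of 4 embryo pools with 10x 3′ chemistry and obtained UMI counts from Cell Ranger 6.0.1, using mm10 plus tdTomato. The authors kept cells by UMIs, genes, mitochondrial and ribosomal percent, and removed cells with a doublet score above 0.5. The deposited table holds per cell the total UMI count, genes detected, mitochondrial percent, doublet score and, for each label transferred from the atlas, a score (the fraction of 15 atlas neighbours with that label). It holds fewer cells than the study's methods state. Library names matched no sample label, so genotype was taken from the tdTomato status in the table, which is constant within each library.

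Visceral, ExE and parietal endoderm and ExE ectoderm were set aside, leaving 8561 epiblast-derived cells of Eomes-KO and 19284 of WT host genotype. Cell numbers were summed by library and by label, and labels or pairs with at least 10 cells were tested with edgeR 4.0.16 (glmQLFit, glmQLFTest) in R 4.3.3 with genotype as the term. Library size was the number of epiblast-derived cells or, within a type, its cells, in types with at least 5 cells in every library. The study's own design has the pool as a term, which could not be fitted. SE is the log2 fold change over the root of F. Library values were compared by two-sided exact permutation (70 arrangements, smallest p 0.029) in scipy 1.17.1. p-values were adjusted by Benjamini-Hochberg with a threshold of 0.05. Cells are not replicates. Libraries of a genotype come from separate clones by the study's methods. Scripts were tested on simulated data. The simulations left out rare labels, among them dermomyotome and posterior somitic tissues within somitic mesoderm, so they do not cover calls on those labels. Named labels are those with at least 10 somitic mesoderm cells, besides every measure tested and, for comparison, NMP, paraxial mesoderm and caudal mesoderm. Members, labels and tests were chosen with earlier results of these data known. Alternatives were TMM scaling, DESeq2 1.42.0, other denominators and filters, and each library left out. Precision is set by the 32 to 185 somitic mesoderm cells per library, and intervals and floors cover counting error only.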

Additional observations from a re-analysis of the deposited data

Results flagged for a closer look

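Of 66 sets of 4 library values, 4 had a library that stood apart from the other 3 by Dixon's test, and chance flags about 1 in 20. In the Eomes-KO library of 3465 cells, median UMIs of somitic mesoderm were 0.957 of those of the other epiblast-derived cells, the mean first-atlas score was −0.143 relative to them, and the extended somitic mesoderm label took 15.1% of somitic mesoderm, each the lowest of the 4 Eomes-KO libraries. In the Eomes-KO library of 602 cells, posterior somitic tissues took 3.12% of somitic mesoderm, which is 1 of 32 cells, and none in the other 3.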

How the results depend on the processing

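Of 525 values recomputed under an alternative, over 43 results, 506 kept their side of the threshold and, where called, their direction, and 35 results did so under every alternative. These counts overstate stability. With 1 library left out, the exact permutation test could give no p below 0.057. Its values, none of them called with all libraries, then kept their side by design. No called value changed sign, but values that were not called did so 32 times, over 12 results, all without passing. Within somitic mesoderm, 1 extended label was called, and 0 were with a doublet score under 0.25 or by exact permutation of the shares, where dermomyotome had fewer cells or the smallest p was 0.029. By exact permutation a single label at that p could not pass after adjustment. Leaving out 1 library gave 0 to 2 calls. Per epiblast-derived cells, 1 label was called, 0 with a doublet score under 0.25, and 1 to 3 with 1 library left out, the highest without the Eomes-KO library of 3465 cells. The posterior somitic tissues label per epiblast-derived cells had an adjusted p of 0.032 without the Eomes-KO library of 602 cells (edgeR's quasi-likelihood test). Without a call, the log2 fold change of the share of somitic mesoderm was 0.08 with TMM and ranged over 0.28 to 0.78 with 1 library left out. That of intermediate-labelled cells per epiblast-derived cells changed sign with TMM (−0.05) and DESeq2 (−0.42). Over all types, the median change of the log2 fold change with TMM was −0.14. The cause of these shifts was not tested. Labels and stages within the type were not run for cells with at least 10000 UMIs, since too few remained in some libraries. No paired analysis was possible because the embryo pool of each library is not known. Libraries with 32 and 47 somitic mesoderm cells limit what can be said of labels of a few percent.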
